A study of Mus musculus with 32 samples.

Results

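Of the 51884 transcript models quantified in this series, 3 are described here: uc008gfj.2 (6982 nt), uc008nqd.1 (5864 nt) and uc007pau.3 (11472 nt), long and abundant transcripts. They were selected on measured values of earlier results of these data: the pulldown over input ratio for uc008gfj.2 and uc008nqd.1, the PSD95 over Pan ratio in depolarized pulldowns for uc007pau.3, and the change of PSD95 over Pan with KCl in pulldowns for uc008gfj.2 and uc007pau.3. These values are given as descriptions, without a test. The identifiers are UCSC transcript names without gene symbols, and 0 of the 3 matched an entry in the gene tables used here. Length did not settle their identity: the files hold 2, 4 and 1 models of those lengths, and the GENCODE M21 annotation of mouse has 1, 5 and 0 transcripts of the same lengths. The transcripts are therefore called by identifier, and neither gene function nor sequence is given.

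Primary cortical neurons of mouse embryos were transduced with a lentivirus carrying doxycycline-inducible TurboID, a ligase that puts biotin on proteins close to it. In TurboID-PSD95 cultures the ligase was fused to PSD95, and in Pan-TurboID cultures it labelled proteins across the neuron. All cultures received cycloheximide for 2 minutes and then biotin for 30 minutes, and UV light (400 and then 200 mJ/cm2) was used for crosslinking. Activity in depolarized cultures (DEP) was first blocked with tetrodotoxin plus DL-AP5 (2 hours), and 55 mM KCl was then applied (1 hour). A pause of 30 minutes in fresh medium, which held the biotin and both blockers, preceded harvest. Resting cultures (REST) were not given KCl, and the sample labels list no silencing for them. As labelled, effects of KCl and of the blockers cannot be told apart, and "change with KCl" below means depolarized against resting cultures. Total RNA of the input (15% of the lysate) and of the streptavidin pulldown was sequenced after ribosomal RNA depletion, which gave 8 groups of state, construct and fraction with 4 biological replicates each, 32 libraries in all.

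PSD95 is the main scaffold protein of the postsynaptic density, the protein layer beneath excitatory synapses that holds glutamate receptors and their signalling partners. Raised extracellular KCl depolarizes neurons, opens voltage-gated calcium channels and starts activity-dependent transcription and translation. In proximity labelling with crosslinking (PL-CLIP), RNA comes down with the biotinylated proteins it was crosslinked to, so the pulldown over input ratio measures how strongly a transcript was recovered with labelled proteins, and the PSD95 over Pan ratio compares labelling near the postsynapse with labelling across the neuron. The libraries are bulk RNA, so a change in the share of a cell type and a change of RNA per cell cannot be told apart. The study described its cultures as free of non-neuronal cells, which was not checked here because the identifiers carry no symbols.

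Libraries held 2950000 to 19300000 estimated counts (to 3 digits), and another transcript, uc009sgd.1, took from 2.08% to 84.8% of them, with over 50% in 6 libraries: the resting Pan and PSD95 pulldowns, the depolarized Pan and PSD95 inputs and the depolarized PSD95 pulldown of replicate 3, and the depolarized Pan input of replicate 4. The 3 transcripts had 1254 to 145123 estimated counts (uc008gfj.2), 116 to 13907 (uc008nqd.1) and 644 to 72159 (uc007pau.3) in a library. Levels are given as CPM, read counts relative to the size of the library, with sizes scaled by the trimmed mean of M-values (TMM). Plain CPM, relative to the whole total with uc009sgd.1 included, is given beside part of the results where it changes the direction or the size. Results without it are on TMM scaling and may differ on plain CPM. The free-text descriptions of the 8 libraries of replicate 2 name the opposite state from their titles and treatment fields, and titles were used.

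The 3 transcripts differed widely in level. Mean CPM over the 32 libraries was 3677 for uc008gfj.2, 1631 for uc007pau.3 and 281 for uc008nqd.1, which ranked 5, 7 and 204 of 34696 transcripts that passed the filter on low counts. Per length, the mean level was 527 CPM per kb for uc008gfj.2, 142 CPM per kb for uc007pau.3 and 48.0 CPM per kb for uc008nqd.1.

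On TMM scaling the level of uc008gfj.2 was higher in every pulldown than in any input, whereas on plain CPM the ranges overlapped (inputs up to 3785, pulldowns from 2269). In Pan inputs it was at 2720, 2418, 2386 and 2028 CPM at rest and at 1694, 1852, 2461 and 1297 CPM after KCl (replicates 1 to 4 in this and the following lists). In Pan pulldowns it was at 5693, 6150, 5892 and 4424 CPM at rest and at 4749, 3770, 4935 and 3988 CPM after KCl. Each Pan pulldown was thus lower after KCl than its own resting library, while the ranges of the groups overlapped. In PSD95 inputs it was at 2036, 1842, 3096 and 2122 CPM at rest and at 2800, 2999, 2197 and 2106 CPM after KCl. In PSD95 pulldowns it was at 5221, 4378, 5360 and 4111 CPM at rest and at 6963, 6060, 5690 and 4234 CPM after KCl, higher in each replicate, and again with overlapping ranges. The share of all transcripts with every pulldown above every input was not counted.

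The level of uc007pau.3 also separated the fractions on TMM scaling, with all inputs below all pulldowns, and overlapped on plain CPM (inputs up to 1605, pulldowns from 1057). In Pan inputs it was at 980.2, 948.9, 948.0 and 991.4 CPM at rest and at 763.8, 650.8, 789.3 and 666.2 CPM after KCl. On TMM scaling these ranges did not overlap, but with the states that the descriptions give replicate 2 they do. On plain CPM the ranges overlapped (rest from 710.5, KCl up to 937.6). The share of all transcripts with ranges apart, between states or between fractions, was not counted. By limma, a different measure, 3.11% of 27887 transcripts were called as changed with KCl in Pan inputs, and 1.02% as lower. In Pan pulldowns it was at 2666, 2418, 2700 and 2365 CPM at rest and at 2213, 1505, 2389 and 2219 CPM after KCl. The depolarized Pan pulldown of replicate 2 was the lowest pulldown of the 16. In PSD95 inputs the values were 854.4, 765.6, 968.7 and 759.2 CPM at rest and 1188, 982.5, 727.4 and 810.2 CPM after KCl. In PSD95 pulldowns they were 2495, 1990, 2615 and 1983 CPM at rest and 3462, 2467, 2390 and 2518 CPM after KCl, with replicate 1 after KCl above the other 15 pulldowns.

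For uc008nqd.1 the replicates stood further apart. In Pan inputs it was at 317.5, 216.9, 160.8 and 238.8 CPM at rest and at 185.3, 93.18, 141.5 and 120 CPM after KCl. In PSD95 inputs it was at 242.5, 145.2, 172.6 and 169.1 CPM at rest and at 328.6, 179.8, 116.5 and 158.2 CPM after KCl. Replicate 1 was the highest of the 4 in these input groups. In Pan pulldowns it was at 691.1, 389.6, 289.6 and 398.7 CPM at rest and at 468.2, 238.3, 227.4 and 307.0 CPM after KCl. In PSD95 pulldowns it was at 668.5, 297.8, 253.9 and 325.6 CPM at rest and at 648.1, 314.2, 186.4 and 308.7 CPM after KCl. Replicate 1 was again the highest and replicate 3 the lowest in each pulldown group, and inputs of replicate 1 overlapped pulldowns of the other replicates.

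**Figure D1:**
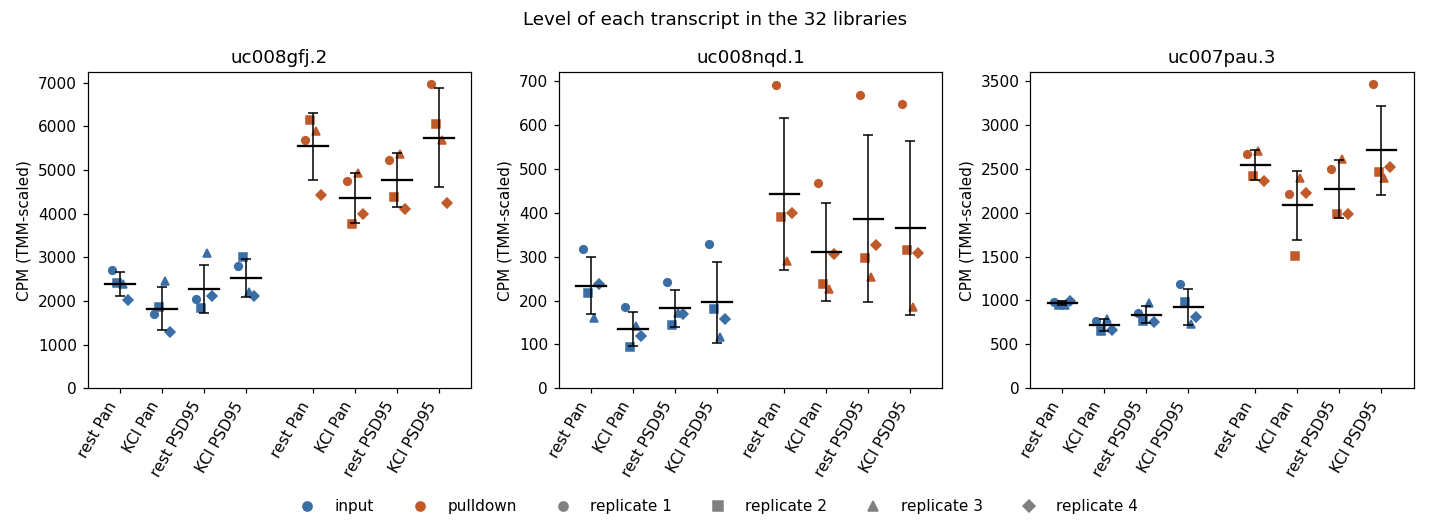
TMM-scaled CPM (linear axis from 0) of uc008gfj.2, uc008nqd.1 and uc007pau.3 in the 4 input groups (blue) and 4 pulldown groups (orange). Symbols are replicates, lines are group means and bars are SD (n = 4). Pulldowns lie above inputs for uc008gfj.2 and uc007pau.3, and replicate 1 is the highest for uc008nqd.1 in every group.

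On TMM scaling, the share of the variance of log2 CPM over the 32 libraries that each factor of the balanced design took showed the same contrast. Fraction took 81.2% for uc008gfj.2, 90.4% for uc007pau.3 and 47.3% for uc008nqd.1. Replicate number took 34.2% for uc008nqd.1, against 5.71% for uc008gfj.2 and 1.97% for uc007pau.3. State and construct together were minor: their interaction took 4.97% for uc008gfj.2, 4.35% for uc008nqd.1 and 3.25% for uc007pau.3, and state alone took at most 5.96%, for uc008nqd.1. The contrast was smaller on plain CPM, where fraction took 43.0% for uc008gfj.2, 52.2% for uc007pau.3 and 26.2% for uc008nqd.1. Replicate number then took 19.9%, 17.8% and 41.2% in the same order, more than fraction for uc008nqd.1.

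On TMM scaling all 3 transcripts were higher in the pulldown than in the input of the same culture in 16 of 16 pairs. On plain CPM this held in 16 of 16 pairs for uc007pau.3 and in 15 of 16 for uc008gfj.2 and uc008nqd.1, for which the resting PSD95 pair of replicate 3 was reversed (log2 ratio -0.47 and -0.71). The share of all transcripts higher in 16 of 16 pairs was not counted. By limma, a different measure, 17.5% of 34696 transcripts were called higher in pulldowns. This ratio had also chosen uc008gfj.2 and uc008nqd.1. For uc008gfj.2 the log2 ratio of pulldown over input was 1.31, 1.16, 1.12 and 1.18 in replicates 1 to 4 (each the mean of its 4 state and construct pairs), with a mean of 1.19 ± 0.08 (SD, n = 4), which is 2.28-fold. For uc008nqd.1 it was 1.23, 1.01, 0.69 and 1.00, with a mean of 0.98 ± 0.22 (SD, n = 4) or 1.98-fold. For uc007pau.3 it was 1.52, 1.32, 1.56 and 1.5, with a mean of 1.48 ± 0.11 (SD, n = 4) or 2.78-fold. Replicate spread was thus widest for uc008nqd.1, whose lowest pair stood at 0.56 and highest at 1.46 on the log2 scale.

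Only the ratio of uc007pau.3 was tested, since this contrast had chosen the others. It was 1.5 ± 0.29 (log2 ± SE, adjusted p = 0.000326) by limma with voomWithQualityWeights, where 30.9% of the 34696 transcripts were called in either direction and 17.5% were called higher. By edgeR's quasi-likelihood test it was 1.47 (adjusted p = 2.4e-13, 20% called), and by limma-trend, which gives no weight to single values, 1.47 ± 0.06 (adjusted p = 5.02e-14, 25.1% called). In the limma fit on 32 libraries, however, the depolarized Pan pulldown of replicate 1 held 87.2% of the summed precision weight of uc007pau.3 and the resting Pan pulldown of replicate 2 another 12.4%, where equal weights would give 3.12% each. For uc008gfj.2 the depolarized PSD95 pulldown of replicate 4 held 99.6%. The call for uc007pau.3 was lost in that fit without replicate 2 (1.61, adjusted p = 0.0584) and without replicate 3 (1.5, adjusted p = 0.0656). Pulldown values had also entered the choice of uc007pau.3, through the PSD95 over Pan contrasts.

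Against other long, abundant transcripts, a class with lower bounds only, the ratios were high. Over 481 transcripts of at least 5000 nt and a mean CPM of at least 100, the median log2 ratio of pulldown over input was -0.27 (quartiles -0.47 and -0.05), and over all 34696 it was 0.20. Among the 481, and counting the transcript itself, 5 were as high as uc007pau.3, 7 as high as uc008gfj.2 and 8 as high as uc008nqd.1. Over all 34696 transcripts, 9.07% were as high as uc007pau.3, 16% as high as uc008gfj.2 and 22.1% as high as uc008nqd.1. This placement is a description, as the ratio chose uc008gfj.2 and uc008nqd.1.

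**Figure D2:**
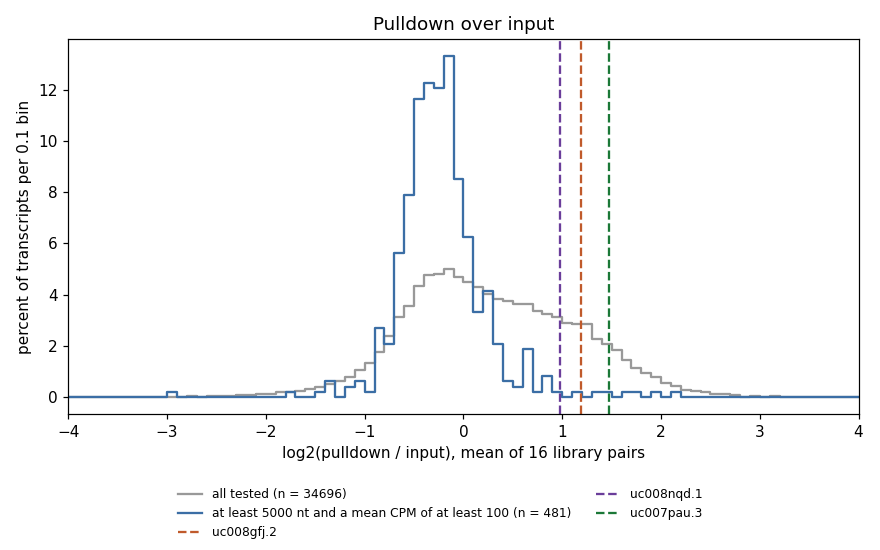
Distribution of log2 pulldown over input (x axis, mean of 16 library pairs, bins of 0.1) as percent of transcripts, for all 34696 transcripts (grey) and the 481 of at least 5000 nt and a mean CPM of at least 100 (blue). Dashed lines mark uc008nqd.1 (0.98), uc008gfj.2 (1.19) and uc007pau.3 (1.47), all right of the median of the blue curve at -0.27.

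On TMM scaling the ratios were of like size in each state and construct. For uc008gfj.2 the group means ran from 1.09 ± 0.26 (resting PSD95) to 1.28 ± 0.32 (depolarized Pan), for uc008nqd.1 from 0.86 ± 0.14 (depolarized PSD95) to 1.18 ± 0.33 (depolarized Pan), and for uc007pau.3 from 1.39 ± 0.11 (resting Pan) to 1.56 ± 0.17 (depolarized PSD95; log2, SD, n = 4 each). On TMM scaling no change of the pulldown over input ratio with KCl was detected. The change was 0.08 ± 0.25, 0.08 ± 0.20 and 0.13 ± 0.20 (log2, mean ± SD of 4 replicates) for uc008gfj.2, uc008nqd.1 and uc007pau.3, and the adjusted p by limma was 0.999, 0.973 and 0.974, with 0.161% of transcripts called. In that fit 1 library held 99.6% of the summed weight of uc008gfj.2, and 2 held 99.7% for uc007pau.3. It therefore cannot test a change across 4 replicates for these. The same libraries had also chosen uc008gfj.2 and uc008nqd.1. By limma-trend the adjusted p was 0.956, 0.969 and 0.919. The 95% intervals by limma-trend were -0.20 to 0.36, -0.26 to 0.41 and -0.12 to 0.37 on the log2 scale, and changes within these intervals remain possible. The value depends on the scaling: on plain CPM the mean change was 1.00 ± 1.23, 0.99 ± 1.15 and 1.04 ± 1.24, with 1.64 to 2.33 in replicates 3 and 4 and -0.37 to 0.32 in replicates 1 and 2, and outside the 3 most abundant transcripts it was 0.14, 0.14 and 0.19. The 6 libraries dominated by uc009sgd.1 are all of replicates 3 and 4, and its part in the difference was not tested.

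On TMM scaling the change with KCl differed in direction between Pan and PSD95 cultures for uc008gfj.2. In Pan pulldowns uc008gfj.2 was lower after KCl in 4 of 4 replicates, with log2 changes of -0.26, -0.71, -0.26 and -0.15 and a mean of -0.34 ± 0.25 (SD, n = 4). In PSD95 pulldowns it was higher in 4 of 4, with changes of 0.42, 0.47, 0.09 and 0.04 and a mean of 0.25 ± 0.22. On plain CPM the Pan pulldown of replicate 3 went the other way (0.24), and the means were -0.27 ± 0.55 and 0.59 ± 0.34. The difference, which is the change of PSD95 over Pan with KCl, was 0.68, 1.18, 0.34 and 0.19 on the log2 scale, with a mean of 0.60 ± 0.44. This contrast chose uc008gfj.2, and limma called 0.0215% of 32553 transcripts in it. edgeR and limma-trend called 0 of 32553, with 1506 and 2210 at an unadjusted p under 0.05, and DESeq2 called 765. The share of all transcripts with 4 of 4 replicates in opposite directions was not counted. With the states of the descriptions, replicate 2 turns over in both constructs.

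For uc007pau.3 the same difference in pulldowns was 0.74, 0.99, 0.05 and 0.44, with a mean of 0.55 ± 0.41 (log2, SD, n = 4). On TMM scaling uc007pau.3 was lower after KCl in 4 of 4 Pan pulldowns (mean -0.31 ± 0.26) and higher in 3 of 4 PSD95 pulldowns (mean 0.25 ± 0.26). On plain CPM it was higher in 2 of 4 Pan pulldowns (mean -0.23 ± 0.58) and in 3 of 4 PSD95 pulldowns (mean 0.58 ± 0.57). On TMM scaling the PSD95 over Pan ratio behind its choice was 0.65, 0.71, 0.00 and 0.18 in depolarized pulldowns, a mean of 0.39 ± 0.35. In resting pulldowns the ratio was -0.10, -0.28, -0.05 and -0.25, a mean of -0.17 ± 0.12. PSD95 libraries were thus below Pan at rest in each replicate, and above or level with them after KCl. For uc008gfj.2 the ratio went from -0.21 ± 0.18 at rest (lower in 4 of 4) to 0.38 ± 0.28 after KCl (higher in 4 of 4). On plain CPM replicate 3 after KCl was below 0 for uc007pau.3 (-0.99) and uc008gfj.2 (-0.79), and outside the 3 most abundant transcripts replicate 3 at rest was above 0 (0.10 and 0.01). The difference in pulldowns in replicate 3 was -0.38 and -0.09 on plain CPM.

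The change of PSD95 over Pan with KCl in pulldowns was not used to choose uc008nqd.1 and was tested for it. It was 0.52, 0.79, -0.10 and 0.30 per replicate, a mean of 0.38 ± 0.37 (log2, SD, n = 4). limma gave 0.44 ± 0.08 (log2 ± SE) with an adjusted p of 0.103, and edgeR gave 0.38 with an adjusted p of 1. The difference did not pass the threshold of 0.05 in either.

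On TMM scaling the inputs moved in like directions. Their values entered the choice of uc008gfj.2 and uc008nqd.1 as the denominator of the pulldown over input ratio, so they are no independent support for these. For uc007pau.3 the inputs are of the same lysates as the pulldowns that chose it, so they are not independent either. In Pan inputs uc008nqd.1 was lower after KCl in 4 of 4 replicates (mean log2 change -0.79 ± 0.44), uc007pau.3 in 4 of 4 (-0.44 ± 0.15) and uc008gfj.2 in 3 of 4 (-0.42 ± 0.34). In PSD95 inputs the means were 0.02 ± 0.45 for uc008nqd.1, 0.13 ± 0.40 for uc007pau.3 and 0.16 ± 0.53 for uc008gfj.2, within the spread of the replicates. The change of PSD95 over Pan with KCl in inputs was 1.14, 1.09, -0.54 and 0.63 for uc008gfj.2. It was 1.22, 1.53, -0.38 and 0.90 for uc008nqd.1, and 0.84, 0.90, -0.15 and 0.67 for uc007pau.3. Replicate 3, in which uc009sgd.1 took over 50% of both depolarized inputs, went against the other 3 replicates for each transcript. Without replicate 3 the means were 0.95 for uc008gfj.2, 1.22 for uc008nqd.1 and 0.80 for uc007pau.3, and the part of uc009sgd.1 in this was not tested.

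These changes in the inputs did not pass the threshold. The limma values were 0.87 ± 0.15 for uc008gfj.2 (log2 ± SE, adjusted p = 0.0745), 0.92 ± 0.18 for uc008nqd.1 (adjusted p = 0.111) and 0.66 ± 0.13 for uc007pau.3 (adjusted p = 0.120), and limma called 0.0502% of 27887 transcripts in this contrast. limma-trend gave 0.56 ± 0.23, 0.80 ± 0.26 and 0.55 ± 0.18, with an adjusted p of 0.819 for each. The difference was past the threshold under some other settings of limma, for uc008gfj.2 without quality weights (0.91, adjusted p = 0.0209), for uc008nqd.1 without quality weights (1.09, adjusted p = 0.0227) and for uc007pau.3 without quality weights (0.74, adjusted p = 0.0256). Without the filter on low counts, by contrast, that of uc008gfj.2 was 0.07 (adjusted p = 0.985), while those of uc008nqd.1 (1.18, adjusted p = 0.000979) and uc007pau.3 (0.93, adjusted p = 0.000172) passed. In pulldowns relative to inputs, the difference between the fractions in this change was 0.02 ± 0.63 for uc008gfj.2, -0.44 ± 0.49 for uc008nqd.1 and -0.01 ± 0.19 for uc007pau.3 (log2, mean ± SD of 4 replicates), each within its spread or, for uc008nqd.1, below 0 in 3 of 4 replicates.

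The direction in replicate 2 depends on which label is used. With the states named in the descriptions its sign turns over, and the mean change of PSD95 over Pan with KCl in pulldowns becomes 0.01 for uc008gfj.2, -0.02 for uc008nqd.1 and 0.06 for uc007pau.3. In inputs it becomes 0.03, 0.05 and 0.12. Without replicate 2 the means in pulldowns were 0.40, 0.24 and 0.41, and in inputs 0.41, 0.58 and 0.45.

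Against 481 long, abundant transcripts, the change of PSD95 over Pan with KCl was high in both fractions, but it was not unusual among all transcripts. The median of the 481 was 0.03 in inputs and -0.02 in pulldowns on the log2 scale. In inputs 9.56% of them were as high as uc008gfj.2, 6.03% as high as uc008nqd.1 and 10.2% as high as uc007pau.3. In pulldowns, where the contrast chose 2 of the 3, the shares were 6.03%, 12.7% and 7.48%. Over all 34696 transcripts the median was 0.23 in both fractions. The shares as high were then 38.7%, 32.9% and 39.3% in inputs, and 37.7%, 44.5% and 38.9% in pulldowns.

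**Figure D3:**
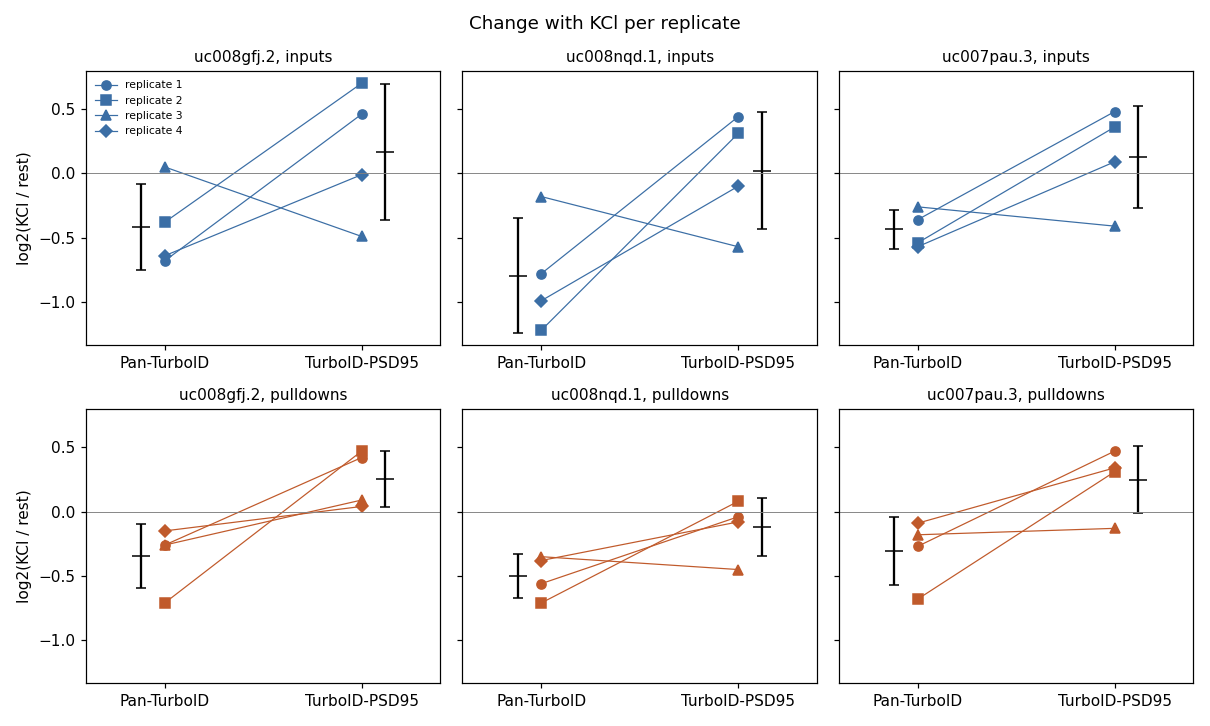
Log2 ratio of depolarized over resting TMM-scaled CPM in Pan-TurboID and TurboID-PSD95 cultures, for inputs (blue, top) and pulldowns (orange, bottom). Symbols joined by lines are replicates, and black marks are means with SD (n = 4). Most lines rise from Pan to PSD95, while replicate 3 falls in the inputs of all 3 transcripts.

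With both constructs averaged, uc008nqd.1 was lower after KCl in every replicate of both fractions on TMM scaling, but on plain CPM in 3 of 4 replicates of the pulldowns (-0.15, -0.45, -0.12 and 0.30, a mean of -0.11 ± 0.31) and in 4 of 4 of the inputs (mean -1.10 ± 0.91). On TMM scaling its log2 change in pulldowns was -0.30, -0.32, -0.40 and -0.23, a mean of -0.31 ± 0.07 (SD, n = 4), which is 0.806-fold. In inputs it was -0.17, -0.46, -0.38 and -0.54, a mean of -0.39 ± 0.16. The constructs differed in size on TMM scaling. In Pan pulldowns alone the mean change of uc008nqd.1 was -0.50 ± 0.17, with 0 of 4 replicates above 0. In PSD95 pulldowns alone it was -0.04, 0.08, -0.45 and -0.08, a mean of -0.12 ± 0.23, within the spread of the replicates. The fall in pulldowns passed the threshold by limma (-0.26 ± 0.04, log2 ± SE, adjusted p = 0.00166), where 13.8% of 32553 transcripts were called and 6.76% were called lower. It also passed by DESeq2 (-0.29, adjusted p = 0.000722, 13.7% called) and by limma-trend (-0.30 ± 0.08, adjusted p = 0.0432, 5.46% called), but not by edgeR (-0.30, adjusted p = 0.0735). The call was lost without replicate 1 (-0.24, adjusted p = 0.177), without the replicate block (-0.31, adjusted p = 0.595) and with the states of the descriptions (-0.23, adjusted p = 0.0773). These pulldowns had also entered the choice of uc008nqd.1, as the numerator of the pulldown over input ratio. The size of the fall was not unusual. Over the 481 long, abundant transcripts the median change in pulldowns was -0.20, and 36.0% were as low as uc008nqd.1. Over all 34696 transcripts 29.6% were as low. In inputs the change did not pass (limma -0.26 ± 0.09, adjusted p = 0.109, with 6.19% of 27887 transcripts called).

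For uc008gfj.2 and uc007pau.3 the mean over constructs was near 0, since Pan and PSD95 cultures moved apart. In pulldowns the log2 change of uc008gfj.2 was 0.08, -0.12, -0.08 and -0.05, a mean of -0.05 ± 0.09 (SD, n = 4). That of uc007pau.3 was 0.10, -0.19, -0.15 and 0.13, a mean of -0.03 ± 0.16. On plain CPM the means were 0.16 ± 0.30 and 0.18 ± 0.40, and outside the 3 most abundant transcripts 0.02 and 0.03, so the sign depends on the scaling. limma nevertheless called both higher, by 0.11 ± 0.02 for uc008gfj.2 (log2 ± SE, adjusted p = 0.00984) and by 0.14 ± 0.04 for uc007pau.3 (adjusted p = 0.0204), with 7.08% of transcripts called higher. In that fit 3 of the 16 pulldowns held 89% of the summed weight of uc008gfj.2 (43.4% in the depolarized PSD95 pulldown of replicate 1), and 3 held 69.6% for uc007pau.3. The PSD95 over Pan contrasts that chose both transcripts used these same pulldowns. With weights this unequal the mean over constructs is not separate from those contrasts, so the limma calls are no independent support. edgeR (-0.03 and -0.01, adjusted p = 0.898 and 0.973), DESeq2 (-0.03 and -0.01, adjusted p = 0.852 and 0.960) and limma-trend (-0.04 ± 0.06 and -0.02 ± 0.08, adjusted p = 0.819 and 0.931) put the change of uc008gfj.2 and uc007pau.3 on the other side of 0, without a call.

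The limma calls of uc008gfj.2 and uc007pau.3 were also lost when any 1 of the 4 replicates was left out. In inputs, the mean over constructs was -0.13 ± 0.21 for uc008gfj.2 and -0.15 ± 0.17 for uc007pau.3 (log2, SD, n = 4), lower in 3 of 4 replicates for each, and did not pass the threshold (limma adjusted p = 0.471 and 0.846). The 95% intervals by limma-trend were -0.37 to 0.13 and -0.35 to 0.05.

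**Figure D4:**
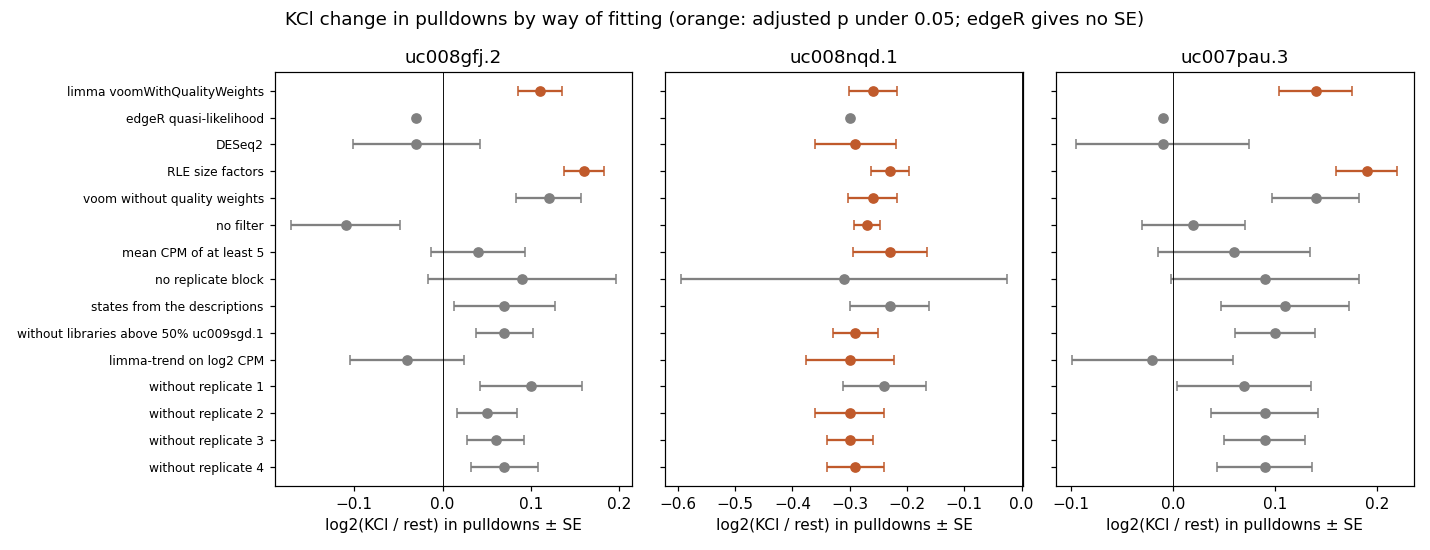
Log2 change with KCl in pulldowns (x axis, mean of both constructs, separate scale per panel) for each transcript under 15 ways of fitting, with SE where the tool gives one; orange points have an adjusted p under 0.05. uc008nqd.1 is below 0 in all 15, whereas uc008gfj.2 and uc007pau.3 are on either side of 0.

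Ratios between the 3 transcripts inside a library need no scaling between libraries. Per nucleotide, uc007pau.3 was at 0.238 ± 0.036 of uc008gfj.2 in the 16 inputs and at 0.288 ± 0.034 in the 16 pulldowns (SD). The ratio was higher in the pulldown in 16 of 16 pairs, by 0.29 ± 0.13 on the log2 scale (mean ± SD of 4 replicates). By contrast, uc008nqd.1 over uc007pau.3 went from 0.415 ± 0.099 in inputs to 0.305 ± 0.108 in pulldowns and was lower in the pulldown in 15 of 16 pairs. The ratio of uc008nqd.1 to uc008gfj.2 was 0.0997 ± 0.0306 in inputs and 0.0880 ± 0.0322 in pulldowns, lower in the pulldown in 13 of 16 pairs. By these ratios the order of recovery in the pulldown was uc007pau.3, uc008gfj.2 and uc008nqd.1, with the last pair closer together than their spread over libraries. The limma fit on 32 libraries reversed the last pair, with pulldown over input at 1.08 for uc008gfj.2 and 1.16 for uc008nqd.1 (log2). The order is a description, since pulldown over input chose both.

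The ratio of uc008nqd.1 to uc008gfj.2 also separated the replicates. It was 0.134 ± 0.014 for replicate 1, 0.0782 ± 0.0158 for replicate 2, 0.0609 ± 0.0120 for replicate 3 and 0.102 ± 0.018 for replicate 4 (SD over 8 libraries each). The lowest library of replicate 1, at 0.111, was above the highest of replicate 3, at 0.0803. The share of reads taken by uc009sgd.1 was 2.36% to 9.30% in libraries of replicate 1 and 28.0% to 78.9% in those of replicate 3, and its part in the ratio was not tested.

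**Figure D5:**
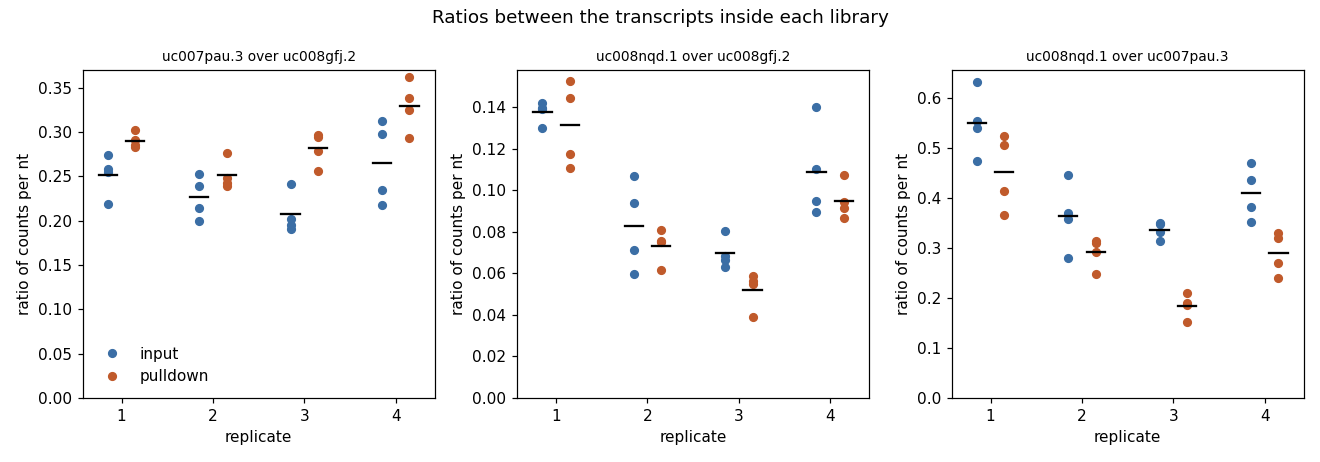
Ratio of estimated counts per nucleotide between pairs of the 3 transcripts inside each of the 32 libraries, by replicate (x axis), for inputs (blue) and pulldowns (orange); black lines are means of 4 libraries and axes start at 0. uc007pau.3 over uc008gfj.2 is higher in pulldowns in each replicate, and both ratios of uc008nqd.1 are highest in replicate 1.

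Over the 32 libraries the levels of uc008gfj.2 and uc007pau.3 ran together. Among 1066 transcripts with a mean CPM of at least 100, uc007pau.3 had the pattern most like uc008gfj.2 (Pearson r of log2 CPM = 0.959), and uc008gfj.2 ranked 3 for uc007pau.3, behind uc029szf.1 (r = 0.963). The transcript most like uc008nqd.1 was uc007par.2 (r = 0.859), with uc007pau.3 at rank 5 (r = 0.795) and uc008gfj.2 at rank 15 (r = 0.746). The median r over the 1066 was -0.45, -0.43 and -0.14 for uc008gfj.2, uc007pau.3 and uc008nqd.1. These points share 2 fractions, and when each fraction was centred on its own mean, r fell to 0.763 between uc008gfj.2 and uc007pau.3, 0.627 between uc008nqd.1 and uc007pau.3 and 0.400 between uc008nqd.1 and uc008gfj.2. Libraries also share scaling factors and depth, so the correlations are descriptions only.

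Estimated counts are partly split among overlapping models. Counts of uc008gfj.2 lay within 0.001 of a whole number in 8 of 32 libraries, those of uc007pau.3 in 3 and those of uc008nqd.1 in 0, so reads of each were shared with other models in most libraries, and their level is uncertain to the extent of that split.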

How the data were processed

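Reads were quantified by the authors with salmon against the mm10 UCSC knownGene models, and DESeq and limma are also named in the submitters' processing notes. The salmon version is not given in the sources used here. Each deposited file holds expected counts (estimated counts, in which reads that fit several models are split) and TPM (summing to 1000000 in a library). Only the estimated counts were tested, rounded to whole numbers.

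Differential levels were tested with limma 3.58.1 (voomWithQualityWeights, after the study's methods) in R 4.3.3, with TMM factors and filterByExpr of edgeR 4.0.16, terms for group and replicate number, two-sided moderated statistics and Benjamini-Hochberg adjustment over all transcripts at 0.05. Inputs and pulldowns were fitted on 16 libraries each and comparisons across fractions on 32. voom weights each value by a trend of spread on count, and these abundant transcripts lie toward its upper end, as does uc009sgd.1. The weights were concentrated in few libraries, and the part of uc009sgd.1 in this was not tested. Values per replicate are therefore given first, and edgeR's quasi-likelihood test, DESeq2 1.42.0 and limma-trend (log2 CPM, prior count of 2) beside limma.

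Ratios per replicate are log2 ratios of TMM-scaled CPM, without a test. The study's model held a batch term for the 4 replicates, so the replicate number was a block. Deviations from group means had a mean r of 0.066 (inputs) and 0.061 (pulldowns) between libraries sharing a number, with lowest pairs at -0.031 and -0.001, and of -0.021 and -0.019 otherwise. None of the 48 replicate pairs looked like 1 library deposited again (0 identical, chi-square over degrees of freedom at least 37.2). The lowest estimated count of a member in a library was 116, for uc008nqd.1, and errors given are spreads between libraries. Scripts were tested on simulated data. Transcripts described are the 3 members, the transcript most correlated with each (mean CPM of at least 100), and uc009sgd.1 where it touches a value. The members and lists were chosen with earlier results of these data known. Other alternatives were RLE size factors, no quality weights, other filters, no replicate block, states from the descriptions, other scalings and leaving out each replicate. Leaving out the 6 libraries with over 50% of reads from uc009sgd.1, limma-trend, the states from the descriptions in ratios per replicate and the centring of fractions were chosen after the data were seen. Figures used matplotlib 3.10.9 in Python 3.11.15.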

Additional observations from a re-analysis of the deposited data

Results flagged for a closer look

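The depolarized PSD95 pulldown of replicate 1 stood apart for uc007pau.3, at 3462 CPM against 2390 to 2518 CPM in the other 3 replicates of its group, a gap of 0.881 of the group's range. Over the 24 groups of 4 libraries examined for the 3 transcripts, it was the only value past Dixon's critical value, and chance flags about 1 in 20 groups.

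In pulldowns the change of uc008gfj.2 with KCl was downward in each of 4 Pan replicates and upward in each of 4 PSD95 replicates, and the means differed by 0.60 on the log2 scale. On plain CPM 1 Pan replicate went upward. With the states that the descriptions give replicate 2, its changes turn over in both constructs, and the mean difference becomes 0.01. The share of all transcripts with such opposite directions was not counted. The difference was not tested, since it had chosen the transcript.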

How the results depend on the processing

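Values are log2 changes unless named otherwise. The KCl change in pulldowns of uc008gfj.2 (0.11) and uc007pau.3 (0.14) turned over by edgeR (-0.03 and -0.01), DESeq2 (-0.03 and -0.01) and limma-trend (-0.04 and -0.02), and that of uc008gfj.2 also without the filter (-0.11). The call was lost without quality weights (0.12 and 0.14), with a filter at a mean CPM of 5 (0.04 and 0.06), with the states from the descriptions (0.07 and 0.11), without the libraries above 50% uc009sgd.1 (0.07 and 0.10), for uc007pau.3 without the filter (0.02), and without each replicate in turn (0.05 to 0.10 and 0.07 to 0.09). Without the replicate block it was lost too (0.09 for both), as was that of uc008nqd.1 (-0.31). For uc008nqd.1 it was also lost by edgeR (-0.30), with the states from the descriptions (-0.23) and without replicate 1 (range without 1 replicate -0.30 to -0.24). The change of PSD95 over Pan with KCl in inputs passed the threshold with RLE factors for uc008gfj.2 (0.92), without quality weights (0.91, 1.09 and 0.74 for uc008gfj.2, uc008nqd.1 and uc007pau.3) and without the filter for uc008nqd.1 (1.18) and uc007pau.3 (0.93), while without the filter that of uc008gfj.2 went from 0.87 to 0.07 (adjusted p = 0.985), and in pulldowns without the filter for uc008nqd.1 (0.49). Pulldown over input of uc007pau.3 ranged from 1.46 to 1.61 without 1 replicate. The block changed no other call among the members. The mean per replicate of pulldown over input rose with plain CPM (1.62, 1.41 and 1.90 for uc008gfj.2, uc008nqd.1 and uc007pau.3) and outside the 3 most abundant transcripts (1.35 and 1.63 for uc008gfj.2 and uc007pau.3), and the change of PSD95 over Pan with KCl in pulldowns went to 0.01, -0.02 and 0.06 with the states from the descriptions. Plain CPM also moved the change of pulldown over input with KCl (1.00, 0.99 and 1.04 for uc008gfj.2, uc008nqd.1 and uc007pau.3) and the KCl change averaged over constructs in inputs (-0.84, -1.10 and -0.86) and in pulldowns (0.16, -0.11 and 0.18). In pulldowns the latter also turned over outside the 3 most abundant transcripts for uc008gfj.2 (0.02) and uc007pau.3 (0.03). Without 1 replicate it was -0.08 to 0.03 for uc007pau.3, and the change of pulldown over input with KCl of uc008nqd.1 was 0.00 to 0.15. The cause of these shifts was not tested.

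Counts of called transcripts moved by over 1.5 times, and the number tested changed with the filter and with the libraries left out. The KCl change in inputs had 1726 calls, and 8 (states from the descriptions) to 699 (no replicate block) where it moved. The KCl change in pulldowns had 4505, and 1074 (edgeR) to 2659 (no replicate block). The change of PSD95 over Pan had 14 in inputs, and 0 (edgeR, no replicate block, states from the descriptions, limma-trend) to 563 (DESeq2), and 7 in pulldowns, and 0 (edgeR, no replicate block and others) to 765 (DESeq2). The change of pulldown over input with KCl had 56, and 0 (edgeR, no replicate block, limma-trend) to 628 (DESeq2). Pulldown over input had 10714 of 34696 tested, and 6640 of only 16644 tested (mean CPM of at least 5) or 6953 of 34696 (edgeR). Without 1 replicate, the counts were 82 to 778, 303 to 3443, 0 to 6, 0 to 3, 2 to 12 and 4879 to 9303 in the same order. For the 3 counts of 0 by edgeR, 1059, 1506 and 1969 transcripts had an unadjusted p under 0.05.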
